A study of Vitis vinifera with 3 samples.

Results

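Mature transfer RNAs (tRNAs) end in the bases CCA at the 3′-end, where the amino acid is attached. In plants these bases are not encoded by nuclear tRNA genes, but are added after transcription by the CCA-adding enzyme. The base just before them is the discriminator base, one strand of the acceptor stem lies next to it, and the T arm follows further towards the 5′-end. Fragments cut from tRNAs are known as a class of plant small RNAs, and those cut from the 3′-end keep the CCA. The tags described here are the reads of 14 to 17 nt that ended in CCA in the deposited short reads of ‘Wink’ grape berries. The labels name mRNA degradome sequencing and the methods small RNA, and which of them made these reads was not settled. They were chosen by their length and last 3 bases alone, and 655 of the 41342 distinct tags of the series met this rule. Tags of the same lengths that ended in the other orders of these bases, ACC (374 tags) and CAC (279 tags), served as controls. No tRNA or genome sequence was at hand to match the tags to, so their genes, chromosomes and amino acids are not given, and "CCA tag" below names an ending and not an origin.

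Berries of Vitis vinifera ‘Wink’ were sampled at 5 (young berries, YB), 45 (stone-hardening berries, SB) and 90 (mature berries, MB) days after flowering (DAF), with 1 library for each stage and no treatment. No difference between stages has a replicate check, and no test between stages was possible. The YB and MB libraries came from other work of the same laboratory, so stage and batch cannot be told apart. The deposited tags were 3 to 17 nt long, and those of 14 to 17 nt made up 37402 reads of 14847 tags at YB, 31521 reads of 13582 tags at SB and 74163 reads of 14516 tags at MB. The count of 3 reads corresponded to 0.00802%, 0.00952% and 0.00405% of these reads, respectively, and was used as the floor for ratios, although many tags were read fewer times. At MB, 58.4% of the reads of 14 to 17 nt belonged to only 2 families of overlapping tags, against 17.99% at YB and 17.5% at SB. None of the CCA tags was in these families, and shares at MB are therefore given with and without them.

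The 10 CCA tags with the largest mean share over the 3 libraries, and 6 tags with the largest differences from SB (tags 5, 10, 13, 14, 15 and 16), ended in few sequences. They are printed 5′ to 3′ with the CCA in capitals, and tags that share the last 10 bases, called a core here, stand together. The first group shared the core gtcgacgCCA and differed at the 5′-end.
CCA tag 1: ccctgctgtcgacgCCA
CCA tag 2: cctgctgtcgacgCCA
CCA tag 3: tcctgctgtcgacgCCA
CCA tag 4: ctgctgtcgacgCCA
CCA tag 5: tgctgtcgacgCCA
The second group shared the core gggttcaCCA.
CCA tag 6: tcacgtcgggttcaCCA
CCA tag 7: cacgtcgggttcaCCA
The third group shared the core ggtcggaCCA.
CCA tag 8: cggcaggtcggaCCA
CCA tag 9: ggcaggtcggaCCA
CCA tag 10: tccggcaggtcggaCCA
The others had the cores aacggaaCCA (tag 11), aaacgcaCCA (tags 12 and 13), cgcacggCCA (tag 14), gacgccaCCA (tag 15) and agccacaCCA (tag 16).
CCA tag 11: cggcaacggaaCCA
CCA tag 12: tcccggcaaacgcaCCA
CCA tag 13: cccggcaaacgcaCCA
CCA tag 14: gacggatcgcacggCCA
CCA tag 15: ccgggcgacgccaCCA
CCA tag 16: tcccagcagccacaCCA
The most read tags of the controls are shown with their own last 3 bases in capitals.
Control ending in ACC: tttaactaaagaaACC
Control ending in CAC: tctgagggctgggCAC

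CCA was a more frequent ending than both controls at SB and MB, by reads and by distinct tags, while at YB its reads differed from those of ACC by less than the counting error. At YB, 183 tags with 424 reads ended in CCA, against 155 tags with 421 reads for ACC and 94 tags with 170 reads for CAC. At SB, 315 tags with 1346 reads ended in CCA, against 127 tags with 312 reads and 98 tags with 154 reads. At MB, 350 tags with 2288 reads ended in CCA, against 153 tags with 337 reads and 129 tags with 202 reads. The CCA reads were thus 1.43 times the mean of the controls at YB (95% interval 1.27 to 1.63), 5.78 times (5.20 to 6.42) at SB and, at MB, 8.49 times (7.73 to 9.33). All intervals cover counting error only, since copies made by PCR are not independent molecules.

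The excess of distinct tags was smaller than that of reads at SB and MB. Counted once each, CCA tags were 1.47 times the mean of the controls at YB (1.21 to 1.78), 2.80 times (2.36 to 3.32) at SB and, at MB, 2.48 times (2.12 to 2.90). Among all 64 possible endings of 3 bases, CCA ranked 34 by distinct tags at YB, 10 at SB and 9 at MB. By reads it ranked 27, 4 and 5. The YB excess by reads rested on the core gtcgacgCCA, without which the ratio to the controls was 1.04, and without all 5 most read cores it was 0.680. At SB and MB the ratio was still 2.24 and 2.31 without those 5 cores. The control ending in ACC was also concentrated, since the control tag printed above held 162 of the 421 ACC reads at YB, 98 of 312 at SB and 19 of 337 at MB.

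The 3 bases CCA were more frequent at the 3′-end than at the 11 next inner positions in every library. CCA ended 1.23% of the distinct tags of 14 to 17 nt at YB (1.07 to 1.42%), 2.32% (2.08 to 2.59%) at SB and, at MB, 2.41% (2.17 to 2.67%). At the 11 positions further inside, it was found in 0.478% to 0.903% of the tags at YB, 0.596% to 1.14% at SB and 0.524% to 0.889% at MB. As the first 3 bases of a tag, CCA was found in 1.11% (0.955 to 1.29%) at YB, 1.19% at SB and 0.896% at MB. The YB interval there overlapped that of the 3′-end. At SB and MB, ACC ended 0.935% and 1.05% of the tags but reached 1.69% and 1.83% at an inner position. That position lay 1 base before the end and so includes CCA tags that end in ACCA. It cannot show whether ACC prefers the 3′-end. Elsewhere inside, ACC reached 1.05% at SB, above its share at the end. At MB it reached 0.992% (0.843 to 1.17%), below the share at the end (0.900 to 1.23%), but the intervals overlapped. CAC ended 0.722% and 0.889% of the tags at SB and MB, below its 0.979% and 0.923% at 11 bases before the end. Neither control thus stood above all these inner positions by more than the counting error.

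All 4 lengths contributed CCA tags, and the longest contributed most. Tags of 17 nt held 48.8%, 45.2% and 48.3% of the CCA reads at YB, SB and MB. For ACC these shares were 23.5%, 28.8% and 45.1%, and for CAC 58.8%, 50.6% and 42.1%. Of all reads of 14 to 17 nt, those of 17 nt were 16898 of 37402 at YB, 13164 of 31521 at SB and 22102 of 74163 at MB. Within the reads of 17 nt, 1.23% ended in CCA at YB (1.07 to 1.40%), 4.62% (4.27 to 4.99%) at SB and, at MB, 5.00% (4.72 to 5.30%). Within those of 14 nt, the values were 1.88% (1.41 to 2.50%), 5.68% (4.79 to 6.73%) and 4.73% (4.16 to 5.38%), so the SB and MB libraries lay above the YB library at both ends of the length range. The lowest values were found at 15 nt for YB (0.815%) and SB (3.42%), and at 16 nt for MB (1.99%). Just outside the rule, at 13 nt, CCA ended 18, 21 and 38 reads (1.55%, 2.44% and 3.75% of the reads of this length), and tags of 18 nt were not analysed here.

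Most CCA tags were rare, and the reads lay in few of them. The median was 1 read per tag in each library, and 73.2% of the CCA tags at YB, 67.0% at SB and 64.9% at MB were read once. The 10 most read tags of each library held 45.0%, 51.8% and 65.6% of its CCA reads. Of the 655 tags, 518 occurred in 1 library only. So did 329 of 374 ACC tags, 248 of 279 CAC tags and 33027 of all 37414 tags of 14 to 17 nt. All 3 libraries held 56 of the CCA tags, or 8.55%. This share was 4.28% for ACC, 3.94% for CAC and 3.06% for all tags of 14 to 17 nt. These 56 tags were 30.6% of the CCA tags of YB, 17.8% of those of SB and 16% of those of MB. They held 66.0%, 72.1% and 78.5% of the CCA reads at YB, SB and MB. Among all tags of 14 to 17 nt, those in all 3 libraries held 49.0%, 48.0% and 75.4% of the reads. The CCA value was thus near that of all tags at MB. For ACC the values were 49.4%, 47.4% and 52.8%, and for CAC 27.1%, 33.1% and 32.7%. CCA tags also had more reads each at SB and MB (4.27 and 6.54 on average, against 1.57 to 2.46 for the controls), and the part of this in the difference was not tested.

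CCA tags shared their 3′ cores more often than the controls did at SB and MB. The 655 tags had 373 cores, of which 40 were found in all 3 libraries. A tag was counted here if another tag of a different length and the same ending had its core. This held for 38.8% of the CCA tags at YB (32.0 to 46.0%), 57.1% (51.6 to 62.5%) at SB and, at MB, 59.7% (54.5 to 64.7%). For ACC the shares were 21.9%, 25.2% and 20.9%, and for CAC 28.7%, 31.6% and 24.03%. The YB interval of CCA overlapped that of CAC (20.6 to 38.6%), while those of SB and MB lay above both controls. More CCA tags per library leave more room for shared cores, and the part of this in the difference was not tested.

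The 5 cores with the largest mean share held 52.6%, 61.3% and 72.8% of the CCA reads at YB, SB and MB. The core gtcgacgCCA had 116, 382 and 543 reads at YB, SB and MB, and was the most read core at YB and SB. The core gggttcaCCA had 36, 228 and 660 reads and was the most read at MB. The core ggtcggaCCA followed with 39, 126 and 340 reads, then aacggaaCCA with 24, 49 and 69, and atgcgcaCCA with 8, 40 and 54. The order of the first pair thus changed between SB and MB. Scaling does not enter this order, because both cores were read in the same library.

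The most read length differed between cores, and for the 4 cores with most reads it was the same in all 3 libraries. For gtcgacgCCA, tags of 17 nt held 59.5%, 46.9% and 55.2% of the reads at YB, SB and MB, and those of 16 nt 33.6%, 36.4% and 33.1%. For gggttcaCCA, tags of 17 nt held 58.3%, 57.5% and 65.3%. For ggtcggaCCA, tags of 15 nt were instead the most read, with 43.6%, 39.7% and 54.1%. For aacggaaCCA, tags of 14 nt held 62.5%, 55.1% and 68.1%. The 5′ starts of these cores were therefore not spread evenly over the 4 lengths. Reads longer than 17 nt with the same ends would not be seen here.

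The base before CCA, which is the discriminator base if the ending is that of a tRNA, was most often A. It was A in 42.6% of the CCA tags at YB (35.7 to 49.9%), 49.5% at SB and 50.9% at MB, against 24.6% to 28.5% of all other tags at the same place. G stood there in 27.3%, 30.5% and 28.3% of the CCA tags, and C in 9.29%, 6.35% and 7.71%. Of the 5 most read cores, gtcgacgCCA had G before CCA and the other cores had A. The base before that one, the fifth from the 3′-end, was C in 48.6% of the CCA tags at YB, 67.0% at SB and 61.7% at MB, against 16.9%, 19.3% and 20.2% of all other tags. Base 13 from the 3′-end was G in 45.4% of the CCA tags at YB and 47.9% at SB, against 29.4% and 31.1%.

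Further inside, C was most frequent at bases 15 and 16 from the 3′-end, counted with the last A as base 1. In tRNAs, the T arm near this distance holds conserved C residues, and base 16 had been chosen for that reason. Among CCA tags of 16 and 17 nt, base 16 was C in 55.0% at YB (46.4 to 63.4%), 64.3% (57.7 to 70.4%) at SB and, at MB, 58.6% (52.3 to 64.6%). In the ACC and CAC controls it was C in 10.5% to 23.4% of the tags, and in all other tags in 18.2% to 18.9%. By reads, the CCA tags had C there in 76.8%, 90.2% and 91.5%. The share of tags was still 50.9%, 61.8% and 58.0% without the 5 most read cores, so it did not rest on them. Base 15 was C in 56.0%, 57.5% and 55.0% of the CCA tags, against 17.6% to 17.9% of all other tags. CCA tags were rich in C at several places, as base 14 (36.1%, 47.3% and 43.4%) also shows, so C at base 16 was not a single isolated feature.

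What followed the bases before CCA was then counted in all reads of 14 to 17 nt, whether or not they ended in CCA. A body is the 10 bases before CCA, and the question was whether reads with that body stopped early, held the whole CCA or went on past it. Over all 423 bodies of the CCA tags, the whole CCA ended 22.4% of the reads with a body at YB (413 of 1846), 53.4% at SB (1328 of 2486) and 67.5% at MB (2272 of 3367). Reads that went on past CCA were 27.9% (515 reads), 15.5% (385) and 3.89% (131), and those that stopped just before it 14.5%, 10.4% and 10.4%. For the bodies of ACC tags, their own whole ending closed 8.32%, 11.0% and 9.26% of the reads, and for those of CAC tags 5.23%, 8.31% and 9.44%. At YB, other bases followed in 71.0% of the reads with an ACC body (3566 reads of 132 tags) and 78.0% with a CAC body. At MB, reads past the ending were 67.2% and 55.9%. As distinct tags, the whole ending at YB was held by 175 tags for CCA, 154 for ACC and 91 for CAC. The contrast at YB was thus smaller by distinct tags than by reads. A read that held several bodies was placed once, by the body nearest its 3′-end. A narrower set held the 29 bodies of CCA tags with at least 2 reads in a library that belonged to the 24 cores with at least 10 reads in a library. For these 29 bodies, the whole CCA ended 61.5% of the reads at YB (286 of 465, 57.0 to 65.8%), 87.0% (1093 of 1256, 85.1 to 88.8%) at SB and, at MB, 97.4% (1982 of 2035, 96.6 to 98.0%). Reads that stopped just before CCA were 20.2%, 6.29% and 0.541%, and those that stopped after the first C 9.68%, 2.47% and 0.393%. Reads that went on past CCA were 1, 4 and 7 in this set, far fewer than over all bodies. Since the cores were chosen for reads with the whole CCA, the levels are raised by the choice, and the part of this choice in the lower share at YB was not tested.

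The cores differed in this respect when all bodies of each core were counted. For gtcgacgCCA the whole ending was found in 97.5% of the reads with its bodies at YB, 98.5% at SB and 98.5% at MB, and for ggtcggaCCA in 92.9%, 97.7% and 98.3%. For aacggaaCCA all 24 reads at YB and all 69 at MB held the whole ending, and 96.1% of 51 reads did at SB. The core gggttcaCCA stood apart, with 38.7% at YB (36 of 93 reads), 87.7% (228 of 260) at SB and, at MB, 98.4% (660 of 671). The 2 most read tags of this core that lacked the whole ending began further towards the 5′-end than CCA tag 6, and they are shown without capitals because they do not end in CCA.
Tag that stops before CCA: gtttcacgtcgggttca
Tag that stops after the first C: tttcacgtcgggttcac
The tag that stops before CCA had 28, 11 and 0 reads at YB, SB and MB, where 0 reads allow up to 0.00405% of the MB reads, and the tag that stops after the first C had 11, 6 and 1. Over the same libraries, CCA tag 6, with the same inner sequence and the whole ending, had 21, 128 and 423 reads. The reads without CCA were thus highest at YB and those with CCA at MB, although MB was the deepest library. Without the body of this core, the whole ending was found for the other 28 bodies in 67.2% of the reads at YB (62.3 to 71.8%). It was found in 86.8% (84.6 to 88.8%) at SB and 96.9% (95.9 to 97.7%) at MB. These bodies were also chosen for reads with the whole CCA, and the part of this choice in the lower share at YB was not tested. Because no tag longer than 17 nt was included, a tag that stops 3 bases earlier can start 3 bases further upstream, and the stops are compared within this window only.

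The share of CCA reads was lowest at YB under every scaling that was tried, while the order of SB and MB depended on the scaling. CCA reads were 1.13% of the reads of 14 to 17 nt at YB (1.03 to 1.25%), 4.27% (4.05 to 4.50%) at SB and, at MB, 3.09% (2.96 to 3.21%). The log2 ratio of YB to SB was -1.91 (-2.07 to -1.76), and that of MB to SB was -0.47 (-0.57 to -0.37). Without the 2 dominant families of MB, the shares became 1.38%, 5.17% and 7.42%, and the log2 ratio of MB to SB turned to 0.52. Scaled to the clean reads, which are the longer reads that the study kept after its filters, there were 42.0 (YB), 117 (SB) and 214 (MB) CCA reads for each 1000000 clean reads, with a log2 ratio of MB to SB of 0.87. Both comparisons with SB share the SB library. In whole berries, fewer cells with such RNAs and less of them per cell cannot be told apart. The log2 ratio of MB to YB was 1.44 for all reads, 2.43 without the families and 2.35 for clean reads.

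The controls did not share the low level at YB. ACC made up 1.13% of the reads of 14 to 17 nt at YB, 0.990% at SB and 0.454% at MB, and CAC 0.455%, 0.489% and 0.272%. Their log2 ratios of YB to SB were 0.19 (-0.03 to 0.40) and -0.10 (-0.42 to 0.21), and both intervals held 0. From SB to MB they were -1.12 for ACC and -0.84 for CAC with all reads, and -0.13 (-0.36 to 0.09) and 0.15 (-0.16 to 0.45) without the 2 families. With clean reads, the log2 ratios of MB to SB were 0.21 (-0.01 to 0.43) for ACC and 0.49 (0.19 to 0.79) for CAC. Those of YB to SB were then 0.61 (0.40 to 0.83) and 0.32 (0.01 to 0.64), so both controls were higher at YB than at SB under this scaling. Measured against the mean of these controls, which needs no scaling, the CCA reads were highest at MB (8.49 times, against 5.78 at SB). By distinct tags the ratio was instead 2.80 at SB and 2.48 at MB, with overlapping intervals. Without the 5 most read cores, the ratio by reads was 2.24 at SB and 2.31 at MB. The order of SB and MB by this measure therefore held for reads and rested on few cores.

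For single tags, a 2-fold difference in share was the limit, with at least 10 reads in the higher library and counts under 3 reads set to 3. Only 22, 27 and 22 of the 655 CCA tags could be compared for YB with SB, MB with SB and MB with YB. They entered through the library in which they were high, so their counts are a description. Between YB and SB, 21 of 22 CCA tags were lower at YB, where 23.7% of all compared tags were lower, and 0 were higher, where 23.5% of all were. Without the 2 families, the numbers were again 21 and 0 of 22, against 24.3% of all tags in each direction. Their median log2 ratio was -2.10, against 0.01 for all compared tags. Between MB and SB, 0 of 27 CCA tags were higher at MB (24.8% of all tags) and 9 were lower (33.6%). Without the families 6 were higher (53.8%) and 3 were lower (31.5%), so the numbers for this pair followed the scaling. The median log2 ratio of these 27 tags was -0.53 for all reads and 0.46 without the families, against 0.35 and 1.20 for all compared tags. Between MB and YB, 15 of 22 were higher at MB (40.9% of all tags) and 0 were lower (37.6%). Without the families 21 were higher (55.0%) and 0 were lower (37.8%).

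The most read tags of the core gtcgacgCCA were lower at YB than at SB in share. CCA tag 1 had 56, 135 and 220 reads at YB, SB and MB, with a log2 ratio of YB to SB of -1.52. CCA tag 2 had 39, 139 and 175 reads, with a log2 ratio of -2.08. CCA tag 3 had 13, 42 and 72 reads, and CCA tag 4 had 5, 53 and 58. CCA tag 4, of 15 nt, had the lowest log2 ratio of YB to SB among all compared CCA tags (-3.65), while CCA tag 1, of 17 nt, was among the 3 highest. The tags of 15 nt were thus rarer at YB relative to the longer ones, with 4.31% of the reads of this core at YB, 14.1% at SB and 11.0% at MB. CCA tag 5, of 14 nt, had 2, 10 and 3 reads at YB, SB and MB.

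The tags of gggttcaCCA and ggtcggaCCA were highest at MB in reads, except CCA tag 10. CCA tag 6 had 21, 128 and 423 reads at YB, SB and MB, which was 0.0561%, 0.406% and 0.570% of the reads of 14 to 17 nt. Its log2 ratio of MB to SB was 0.49, and 1.48 without the 2 families. CCA tag 7 had 14, 74 and 188 reads, with 0.11 and 1.10. CCA tag 8 had 14, 46 and 180 reads and the highest log2 ratio of MB to SB (0.73, and 1.72 without the families). CCA tag 9 had 7, 28 and 103 reads, with 0.64 and 1.63. The ratios of tags 6 to 9 were above 0 under both scalings, but tags 8 and 9 rank highest among the compared CCA tags. Of the 27 compared CCA tags, 6 lay above 0 and 21 below with all reads. Without the families, 18 lay above 0 and 9 below. CCA tag 10, a form of 17 nt of the same core as tags 8 and 9, had 3, 21 and 19 reads, with a log2 ratio of MB to SB of -1.38, and of -0.39 without the families. With clean reads its log2 ratio was -0.04, against 2.07 for tag 8 and 1.98 for tag 9. CCA tag 10 thus lay below tags 8 and 9 under each of these scalings, while its own distance from SB followed the scaling and rested on few reads.

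The remaining tags had fewer reads. CCA tag 11 had 13, 26 and 46 reads at YB, SB and MB. CCA tag 14 had 9, 11 and 16 reads and was the CCA tag with the highest log2 ratio of YB to SB, which was still below 0 (-0.54). CCA tag 12 had 3, 26 and 18 reads and was highest at SB in reads, although the SB library was the smallest. Its shorter form, CCA tag 13, had 2, 10 and 2 reads, and CCA tag 15 had 1, 10 and 2. With CCA tag 5, tags 13 and 15 were the lowest of MB against SB. All had the same log2 ratio (-2.97), which was set by 10 reads at SB and the floor of 3 reads at MB. CCA tag 16 had 1, 3 and 10 reads and was the third highest of MB against SB, behind tags 8 and 9.

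Some CCA tags had a second CCA just before the last. The ending CCACCA was found in 14 CCA tags with 17 reads at YB, 34 tags with 79 reads at SB and 32 tags with 92 reads at MB. This was 4.01%, 5.87% and 4.02% of the CCA reads, with overlapping intervals of 2.52 to 6.33%, 4.73 to 7.26% and 3.29 to 4.91%. CCA tag 15 is one of them, and so the base before the last CCA is A in all of these tags.

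Few CCA tags lay inside the known grapevine microRNAs (VvmiRNAs), of which 161 entries listed by the study were searched, while its other lists were not. At YB and SB, 0 CCA tags lay inside one of these entries, and 4 tags with 6 reads did at MB, which was 0.262% of the CCA reads there. Of these, 3 tags with 1 read each matched the 3′-end of VvmiR3623, whose own sequence ends in CCA, and the other, with 3 reads, matched VvmiR477 from its first base to base 17. A match of this length does not give the origin of a tag.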

How the data were processed

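For each library, the authors deposited counts of reads per distinct tag, with its length and sequence and without normalization. The tool and its settings for this step, and for collapsing reads, are not given in the sources used here. The methods describe cutting RNA of larger size from a gel and dropping short tags, so how reads of up to 17 nt passed is not known, and their number and lengths may follow this selection. The labels name mRNA degradome sequencing and another platform than the methods, and which of them made these reads was not settled.

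Tags of 14 to 17 nt were grouped by their last 3 bases. The members and lists were chosen with earlier results of these data known. Shares carry 95% Wilson intervals, and ratios have intervals from counts. A core is the last 10 bases, and a body the 10 bases before CCA. Sharing of cores was counted between tags of different lengths only. The 2 dominant families of MB are tags that share a stretch of 13 bases with its most read tag or with the next most read tag that lacks such a stretch. Clean-read scaling used totals implied by the tables of the study. Stage ratios set counts under 3 to 3. With 1 library per stage, no test was made. The tags named were the 10 CCA tags with the largest mean share, the 3 most read of each library, the 3 largest differences of YB and of MB from SB in each direction, the 5 cores with the largest mean share and the most read control of each order. The tags without the whole ending and the count of CCACCA were chosen after their values were seen. Alternatives covered length, low counts, core length, dominant tags and scaling. Counting was tested on simulated data. Python 3.11.15, scipy 1.17.1 and numpy 2.4.6 were used, with edgeR 4.0.16 and DESeq2 1.42.0 (R 4.3.3) for size factors only. No reference sequence was used, so the tags were not mapped.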

Additional observations from a re-analysis of the deposited data

How the results depend on the processing

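No paired analysis was possible because each stage has 1 library. The alternatives without the 2 dominant families for the stage comparisons, without all tags of the 5 most read cores, and with distinct tags in the ratio to the controls were added after the data were seen. Of 147 values under alternatives, 77 stayed within their counting interval or within 1.5 times the reported count, 68 moved and 2 reversed.

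With tags of at least 2 reads only, CCA ended 1.96% (YB), 4.52% (SB) and 4.70% (MB) of the tags, and 5.61% (SB) and 3.31% (MB) of the reads, with a ratio to the controls of 8.05 (SB) and 13.8 (MB). Cores were then shared by 65.3%, 78.8% and 73.2% of the CCA tags, and C stood at base 16 in 81.3%, 89.4% and 82.7%. Weighted by reads, the latter was 76.8%, 90.2% and 91.5%. With cores of the last 8 bases, 49.2%, 73.7% and 72.9% of the tags shared one. With 14 and 15 nt only, CCA ended 2.76% (SB) and 3.04% (MB) of the tags and 4.003% (SB) and 2.62% (MB) of the reads, and the ratio was 1.65, 6.47 and 12.7. With 16 and 17 nt only, CCA reads were 3.30% and the ratio 7.58 at MB.

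Without the 2 families, CCA reads were 1.38%, 5.17% and 7.42%, and without tags inside listed VvmiRNAs 1.26% at YB. Without the most read CCA tag they were 3.88% (SB) and 2.53% (MB), and the ratio was 6.92 at MB. Without the most read core they were 0.826%, 3.10% and 2.37%, and the ratio 1.04, 4.14 and 6.47. Without all tags of the 5 most read cores they were 0.541%, 1.70% and 0.858%, and the ratio 0.680, 2.24 and 2.31. By distinct tags the ratio was 2.80 (SB) and 2.48 (MB).

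The log2 ratio of MB to SB reversed to 0.87 with clean reads and to 0.52 without the families, and was -0.62 without the most read CCA tag and -0.15 with DESeq2 size factors. That of YB to SB was -1.48 with clean reads, -1.64 with TMM factors and -1.47 with DESeq2 size factors. That of MB to YB was 2.35 with clean reads, 2.43 without the families, 1.23 without the most read CCA tag and 1.21 with TMM factors. Of the CCA tags, 11 were lower at YB than at SB with at least 20 reads in the higher library and 35 without a filter. At MB against SB, 9 were higher with clean reads, 1 with DESeq2 size factors and 6 without the families. Lower were 3 with clean reads, 3 with at least 20 reads, 3 without the families and 27 without a filter. At MB against YB, 2 were lower without a filter. The share of all tags past the limit was counted only for all reads and without the families. Without the families, 53.8% of all tags were higher and 31.5% lower at MB against SB. The counts under the other settings have no such share beside them, so they describe the CCA tags only.

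With 1 library per stage, these ranges cover counting and processing only. Single tags under 10 reads and tags longer than 17 nt limit what can be read from them.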
